A study of Mus musculus with 22 samples.

Results

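Gene expression of blastocysts that had grown in vivo was compared between CD1 and B6 mice at embryonic day 3.5. The CD1 in vivo and the B6 in vivo group held 3 arrays each, labelled as biological replicates, out of 22 arrays and 8 groups in the study. The other 16 arrays came from blastocysts of the same strains grown in the media HTF, ISM1 or KSOM, with 3 arrays per group except a single one for CD1 in KSOM. Probes detected at p under 0.05 on at least 3 of the 22 arrays were used, and genes on the X and Y chromosomes were left out. This left 9029 autosomal genes of the 9345 tested. CD1 is an outbred stock, so its embryos differ genetically among themselves, whereas B6 is inbred. The labels name no substrain and give neither the number of embryos behind an array, nor pooling, nor embryo sex.

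At this stage the embryo is a hollow ball with an outer epithelium, the trophectoderm, which pumps fluid into the cavity and will form placenta. The inner cell mass inside it is sorting into epiblast, the source of the fetus, and primitive endoderm, which lines the yolk sac. Factors such as CDX2, NANOG and GATA6 mark these 3 fates. Mouse strains carry DNA differences near many genes, and the timing of early development is known to differ between strains.

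The arrays were not equally bright. Median probe intensity was 90.6 to 112 on the CD1 in vivo arrays and 127 to 149 on the B6 in vivo arrays. The CD1 in vivo arrays detected 8964 to 9831 probes, against 10406 to 10733 on the B6 in vivo arrays. Across genes, CD1 in vivo arrays correlated with each other at 0.824 to 0.899, B6 in vivo arrays at 0.873 to 0.962, and arrays of different strains at 0.783 to 0.952. The third CD1 array correlated better with B6 replicates 1 and 2 (0.948 and 0.952) than with its own group. The median gene had a replicate SD of 0.614 log2 units in CD1 in vivo and 0.458 in B6 in vivo. In culture it was 0.324 in CD1 and 0.309 in B6 in HTF, 0.498 in CD1 and 0.348 in B6 in ISM1, and 0.486 in B6 in KSOM.

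No autosomal gene passed the test between CD1 and B6 in vivo. At an adjusted p under 0.05 limma called 0 of the 9029 genes (0%), and the smallest adjusted p was 0.121, for Gal3st2. Before adjustment, 877 genes (9.71%) had a p under 0.05, of which 445 were higher in CD1 (4.93%) and 432 lower (4.78%). With only the in vivo arrays fitted, 384 genes had an unadjusted p under 0.05 by limma, and the smallest adjusted p was 0.937. The 877 genes and the adjusted p of 0.121 thus depended on having the other arrays in the fit. All 3 CD1 arrays lay above all 3 B6 arrays for 468 genes (5.18%) and below them for 474 (5.25%). The estimate differed by more than 1 log2 unit for 1019 genes and by more than 2 for 53. The typical gene was known with an SE of 0.429, so its 95% interval reached 0.904 log2 units, or 1.87-fold, to either side. For 2467 genes (27.3%) the whole interval lay within 1 log2 unit of 0. A difference of 2-fold was therefore outside the interval for those genes and was not detectable at this precision for most others.

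The count of 0 depended on 2 choices. Without CD1 replicate 1, 2 or 3, limma called 5, 2 or 24 genes. With arrays scaled to a common median in place of quantile normalization, the median of all genes moved by -0.50 and 567 genes were called, 564 of them lower in CD1. Once each array was centred on the genes tested, the count was again 0. That setting moved the genes the other way, with a median of 0.38 over all genes and 2101 genes at an unadjusted p under 0.05 by limma.

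The genes with the smallest p among those whose arrays did not overlap between the strains are described next. None was called, with adjusted p from 0.121 to 0.33 by limma, and the choice of non-overlapping genes fixes that their groups are apart. Where strain is the compared group, a sequence variant under a probe and a difference in RNA amount cannot be told apart. Values are normalized log2 intensities for replicates 1, 2 and 3 in that order.

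Among genes higher in CD1, Mterf1a, which encodes a mitochondrial protein of the transcription termination factor family, was the most even. It measured 9.60, 9.70 and 9.62 in CD1 in vivo, against 8.21, 8.14 and 8.11 in B6 in vivo. The groups were far apart for their spread, and the difference was 1.49 (SE 0.32, 2.80-fold, adjusted p = 0.26 by limma). The other 2 probes of Mterf1a gave 1.38 and 1.70. Ccdc144b had the largest estimate of the 20 genes. Its values were 10.21, 9.54 and 7.84 in CD1 in vivo and 6.72, 5.67 and 5.26 in B6 in vivo, a difference of 3.31 (SE 0.65). The lowest CD1 array was replicate 3, which still lay above the highest B6 array. Atp10d, a lipid-flipping ATPase of cell membranes, measured 9.84, 7.97 and 8.34 in CD1 in vivo and 5.18, 5.24 and 6.99 in B6 in vivo. It was detected on 1 of the 3 B6 arrays, replicate 3, where it was closest to the CD1 range.

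Golm2, a Golgi membrane protein, measured 8.49, 8.13 and 8.81 in CD1 in vivo and 6.01, 6.88 and 5.47 in B6 in vivo. The difference was 2.36 (SE 0.55), and all 6 arrays detected the gene. Zfp607a, which encodes a zinc finger protein, measured 9.59, 8.27 and 8.15 in CD1 in vivo and 6.94, 7.15 and 6.92 in B6 in vivo. Its B6 values lay close together, and CD1 replicate 1 stood above the rest. Vldlr, a receptor for lipoproteins, was detected on all 3 CD1 arrays (8.21, 6.67 and 6.42) and on 0 B6 arrays (4.76, 5.22 and 4.88). Set against the detection floor of the B6 arrays, it was higher in CD1 by at least 3.35-fold (limma adjusted p = 0.26), and a further probe, detected on 3 CD1 arrays and 1 B6 array, gave 1.32. The scaffold gene Slc9a3r2, whose product binds sodium-hydrogen exchangers, was likewise detected on 3 CD1 and 0 B6 arrays. Its CD1 mean was higher by at least 2.35-fold (limma adjusted p = 0.26). Fhod3, a formin that shapes actin filaments, was detected on 2 CD1 and 0 B6 arrays. The CD1 mean of Fhod3 was higher by at least 1.35-fold (limma adjusted p = 0.291). Syt11, a membrane trafficking protein of the synaptotagmin family, differed by 1.85 on its brightest probe and by -0.05 on its other one.

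Ggct, which encodes an enzyme of glutathione breakdown, and Timmdc1, an assembly factor of respiratory complex I, recur in the comparisons of cultured embryos given further on. Ggct measured 6.67, 7.90 and 7.15 in CD1 in vivo and 5.64, 5.35 and 5.31 in B6 in vivo, 3.49-fold higher in CD1 (SE 0.40 in log2, adjusted p = 0.26 by limma). Its other 3 probes gave 1.29, 0.82 and 0.76, of which the first had an unadjusted p under 0.05. Timmdc1 measured 8.23, 8.44 and 8.96 in CD1 in vivo and 7.43, 7.25 and 6.95 in B6 in vivo, 2.52-fold higher in CD1 (SE 0.45 in log2, adjusted p = 0.408 by limma). Every CD1 array was above every B6 array for both genes. Their promoters are printed to show the sequence around the start of these genes in the mouse reference, from 250 bases before the start to 50 after it (RefSeq, GRCm38.p6). The Ggct promoter lies at chr6:54992818-54993117 on the minus strand and that of Timmdc1 at chr16:38522614-38522913 on the minus strand. Capitals mark 3 motifs searched on both strands, with no overlap between motifs here: the CCAAT box, the GC box with the letters GGGCGG, and TATAAA, the core promoter box that binds TBP.
Ggct: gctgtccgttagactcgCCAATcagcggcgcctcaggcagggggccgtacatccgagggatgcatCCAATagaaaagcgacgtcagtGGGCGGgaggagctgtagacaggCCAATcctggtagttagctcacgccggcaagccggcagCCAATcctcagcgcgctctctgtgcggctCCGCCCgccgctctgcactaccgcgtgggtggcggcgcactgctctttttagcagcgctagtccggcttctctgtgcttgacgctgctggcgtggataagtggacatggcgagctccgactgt
Timmdc1: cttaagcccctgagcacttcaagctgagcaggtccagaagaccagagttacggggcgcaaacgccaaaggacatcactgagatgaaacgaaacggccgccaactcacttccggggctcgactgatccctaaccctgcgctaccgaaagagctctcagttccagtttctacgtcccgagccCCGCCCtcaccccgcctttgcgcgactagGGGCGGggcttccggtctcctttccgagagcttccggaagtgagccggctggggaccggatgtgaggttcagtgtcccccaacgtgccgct
The Ggct window held CCAAT 4 times and GGGCGG 2 times, and the Timmdc1 window held GGGCGG 2 times and CCAAT 0 times. TATAAA was in neither. Of 32851 mouse promoters of this length, 37.4% held CCAAT, 35.7% GGGCGG and 13.6% TATAAA. GC content was 63.33% for Ggct and 61.33% for Timmdc1, against a median of 52.67% over these promoters. The CD1 sequence of these windows was not used here.

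Among genes lower in CD1, Gal3st2, a sulfotransferase that modifies galactose on glycans, had the smallest p. It measured 5.90, 5.55 and 7.15 in CD1 in vivo, against 9.50, 8.66 and 9.0 in B6 in vivo. The highest CD1 array, replicate 3, stayed below the lowest B6 array, and the level was 7.22-fold lower in CD1 (log2 difference -2.85, SE 0.51). Cbs encodes cystathionine beta-synthase, which takes homocysteine towards cysteine. It measured 6.53, 5.24 and 6.31 in CD1 in vivo and 7.80, 8.11 and 9.67 in B6 in vivo, a difference of -2.50 (SE 0.61), and its other probe gave -2.49. Ccnd3, cyclin D3 of the early cell cycle, measured 11.12, 10.60 and 11.70 in CD1 in vivo and 12.32, 12.46 and 12.82 in B6 in vivo. The difference was -1.39 (SE 0.34), while its other, dim probe gave 0.33.

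Rmdn3, which tethers mitochondria to the endoplasmic reticulum, measured 7.35, 8.93 and 9.43 in CD1 in vivo and 10.52, 10.36 and 10.91 in B6 in vivo. Its other probe gave 0.20, so the lower level was seen on 1 of 2 probes. Sap130, a subunit of the Sin3 histone deacetylase complex, measured 8.31, 8.64 and 9.01 in CD1 in vivo and 10.19, 9.59 and 10.69 in B6 in vivo. Tada3, an adaptor of histone acetyltransferase complexes, was detected on 0 CD1 arrays (4.69, 4.55 and 4.98) and on all 3 B6 arrays (6.72, 6.35 and 7.59). Its CD1 mean, set at the detection floor, was at least 2.36-fold below the B6 mean (adjusted p = 0.321 by limma). Socs1, an inhibitor of cytokine signalling, was detected on 0 CD1 and 3 B6 arrays. In the same way, its CD1 mean was at least 1.66-fold lower (adjusted p = 0.26 by limma). Pex26, needed to bring matrix proteins into peroxisomes, differed by -1.39, and Ppm1m, a protein phosphatase, by -1.84 with 0.05 on its other probe. Stk19 differed by -1.87 on its brightest probe and by -0.19 on the other probe that both strains detected.

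**Figure D1:**
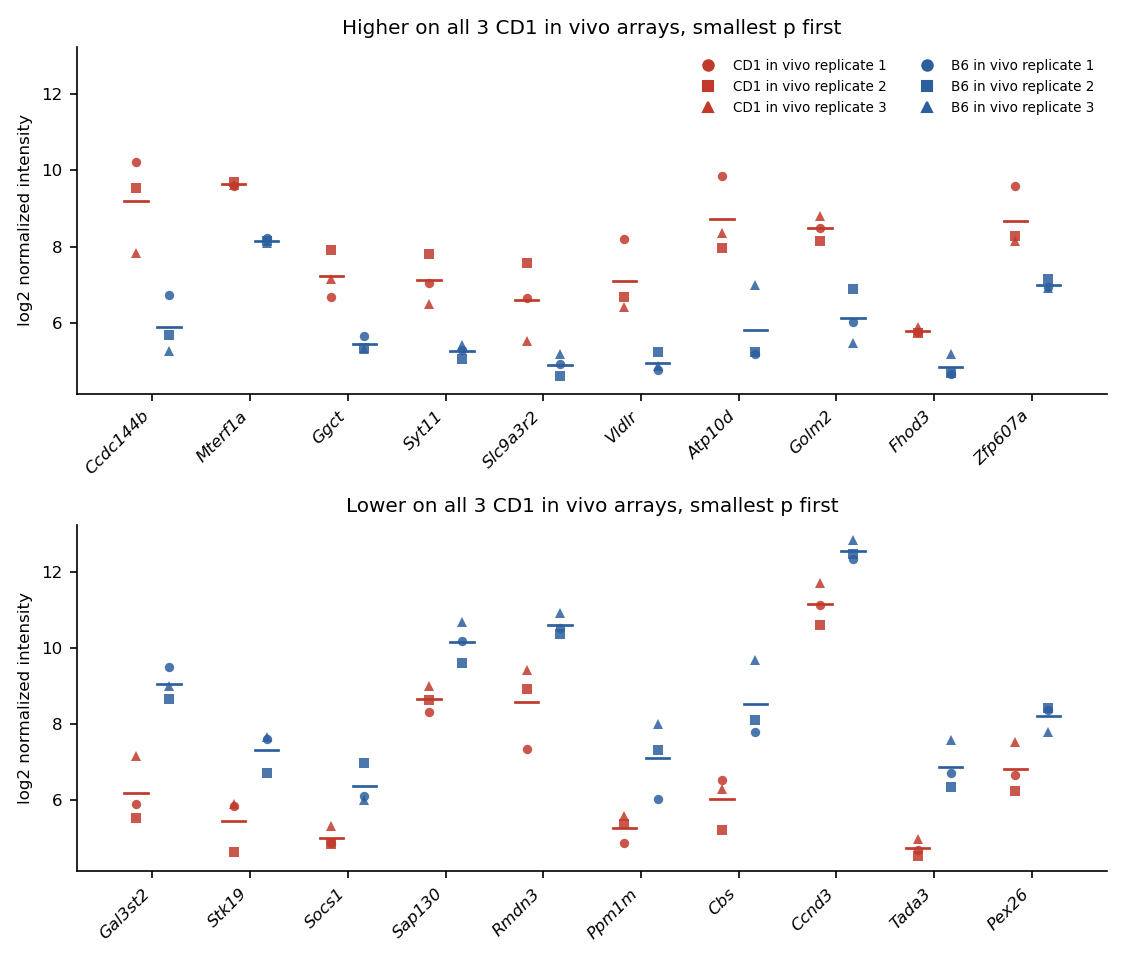
Normalized log2 intensity of the 20 genes with the smallest p among those without overlap, 10 higher and 10 lower in CD1, with CD1 in vivo arrays in red left of B6 in vivo arrays in blue. Symbols are replicates and bars are group means. No gene shown was called, and the groups do not overlap because the genes were chosen for it.

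Of these 20 genes, 9 had more than 1 usable probe. For 3 of them (Mterf1a, Vldlr and Cbs) every further probe had an unadjusted p under 0.05 on the same side, for Ggct 1 of 3 further probes did, and for 5 (Syt11, Stk19, Rmdn3, Ppm1m and Ccnd3) no further probe did. Over all autosomal genes, the brightest and a further probe had the same sign in 66.4% of 2773 pairs, and in 82.7% of the 266 pairs whose brightest probe had an unadjusted p under 0.05.

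The factors that define the 3 blastocyst lineages were not called between the strains, and several varied more between arrays of a strain than between strains. Cdx2, which specifies trophectoderm, measured 12.21, 12.39 and 12.84 in CD1 in vivo and 12.89, 13.54 and 12.32 in B6 in vivo. Gata6, needed for primitive endoderm, measured 12.63, 12.76 and 12.69 in CD1 in vivo and 12.98, 12.93 and 12.48 in B6 in vivo. The strains overlapped for both genes, and the 95% interval of Gata6 ran from -0.75 to 0.53. Nanog, which maintains the epiblast, differed by -0.27 (SE 0.36) and Gata3, a second trophectoderm factor, by -0.23 (SE 0.96). In whole embryos, fewer cells of a type and less RNA per cell cannot be told apart.

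Sox17, a primitive endoderm factor, was the most uneven of these. It measured 4.83, 11.50 and 10.05 in CD1 in vivo and 8.93, 10.17 and 4.60 in B6 in vivo. It was thus undetected on CD1 replicate 1 and B6 replicate 3 and high on the other 4 arrays. Eomes, a trophectoderm factor, was lowest on the same arrays, with 7.29, 11.01 and 9.66 in CD1 in vivo and 10.07, 11.71 and 6.36 in B6 in vivo. The imprinted growth factor gene Igf2 measured 6.19, 10.12 and 8.59 in CD1 in vivo and 8.46, 9.46 and 7.42 in B6 in vivo, again lowest on those 2 arrays. Cdkn1a, a cell cycle inhibitor induced by p53, was highest on them, with 11.06, 6.72 and 8.13 in CD1 in vivo and 10.39, 8.38 and 12.22 in B6 in vivo. Pou5f1, the pluripotency factor OCT4, measured 9.81, 6.05 and 8.63 in CD1 in vivo and 9.97, 8.89 and 12.03 in B6 in vivo, a difference of -2.13 (SE 0.92, adjusted p = 0.476 by limma). Sox2 and Gata4 were near the detection floor on most arrays and differed by 0.01 (SE 0.30) and 0.20 (SE 0.31). The imprinted gene Mest differed by 0.34 (SE 0.38), and the 15 imprinted genes tested had a median difference of 0.08, with no gene free of overlap between the strains.

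**Figure D2:**
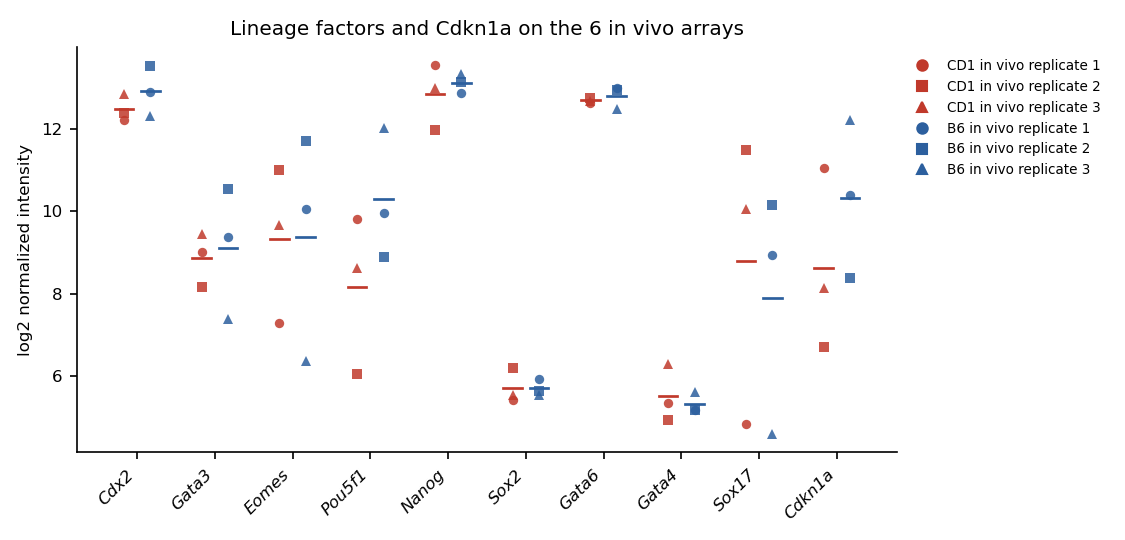
Normalized log2 intensity of 9 lineage factors and Cdkn1a on the 6 in vivo arrays, CD1 in red left of B6 in blue. Symbols are replicates and bars are group means. CD1 replicate 1 and B6 replicate 3 are lowest for Sox17 and Eomes and highest for Cdkn1a, so the spread runs across the strains.

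The same arrays stood apart in some gene lists. Trophectoderm genes had a list mean of 8.89, 10.87 and 10.36 in CD1 in vivo and 10.64, 11.06 and 9.19 in B6 in vivo. Primitive endoderm genes averaged 7.64, 9.53 and 9.18 in CD1 in vivo and 8.56, 9.11 and 7.67 in B6 in vivo. Both lists were lowest on CD1 replicate 1 and B6 replicate 3. Targets of p53 averaged 9.21, 6.89 and 7.67 in CD1 in vivo and 8.05, 7.34 and 8.90 in B6 in vivo. Genes of cholesterol synthesis averaged 9.58, 8.55 and 7.99 in CD1 in vivo and 8.36, 8.45 and 10.23 in B6 in vivo. These 2 lists were highest on the same pair of arrays. Of 25 autosomal lists, 24 overlapped between the strains, and in 23 the strain difference was smaller than the larger of the 2 replicate SDs. Over the 25 lists, the lowest or highest level was on CD1 replicate 1 in 9, on B6 replicate 3 in 10 and on CD1 replicate 2 in 12.

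**Figure D3:**
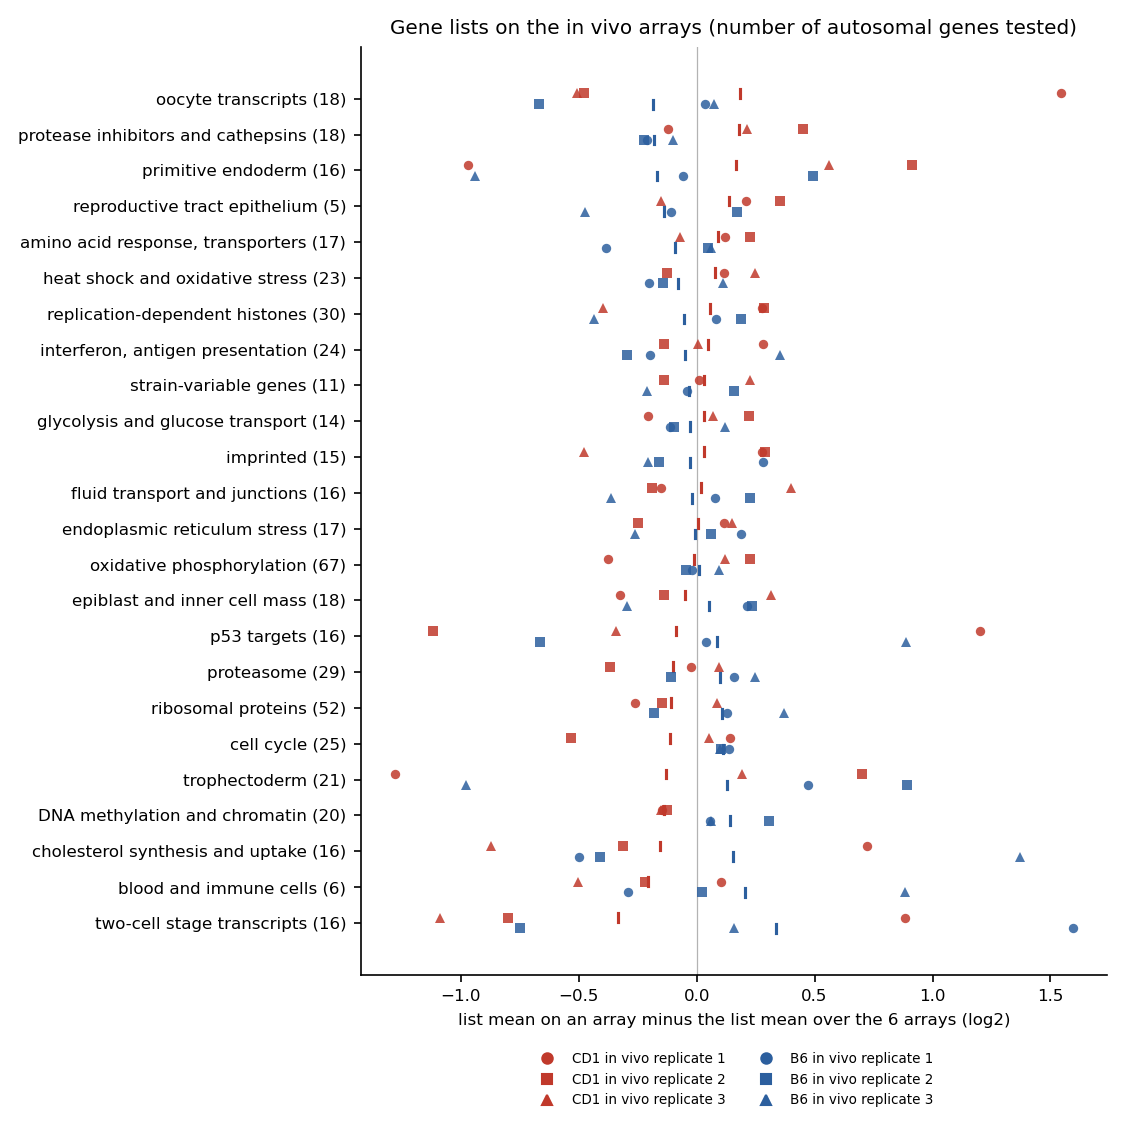
Mean log2 level of 24 gene lists on each in vivo array, as the difference from the mean of that list over the 6 arrays, with CD1 in red above B6 in blue and the number of tested genes in brackets. Symbols are replicates and ticks are strain means. The points of the strains overlap in each list except DNA methylation and chromatin, and the widest spreads, as for p53 targets and trophectoderm, lie within the strains.

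Over all autosomal genes the median strain difference was 0.01 log2 units, and 50.7% of genes were higher and 49.3% lower in CD1. No member of any autosomal list was called. Trophectoderm genes had a median of -0.23, with 14 of 21 lower in CD1, and primitive endoderm genes a median of 0.25, with 12 of 16 higher. Neither sign was stable. The trophectoderm median was 0.32 without CD1 replicate 1 and 0.21 without B6 replicate 2, and the primitive endoderm median was -0.084 without CD1 replicate 2 and -0.060 without B6 replicate 3. Of the 25 list medians, 24 had the other sign under at least 1 of the other settings. Median scaling and its centred form put the median of all genes at -0.50 and 0.38, so a small list median can turn there along with all genes. The epiblast, heat shock, interferon, protease inhibitor and histone lists turned in only 1 setting, which was 1 of these scalings. Cldn4, a tight junction claudin, measured 11.59, 10.51 and 11.69 in CD1 in vivo and 12.21, 12.41 and 12.82 in B6 in vivo, a difference of -1.22 (SE 0.36). Cdh1, the adherens junction protein E-cadherin, measured 12.27, 12.37 and 11.86 in CD1 in vivo and 11.07, 11.56 and 10.82 in B6 in vivo, a difference of 1.02 (SE 0.36). The arrays of the strains did not overlap for either junction gene. The basement membrane gene Nid1, in the primitive endoderm list, differed by 1.80 (SE 0.70). Epiblast genes had a median of -0.09, and Gdf3, a growth factor of pluripotent cells, differed by -1.0 (SE 0.36).

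The DNA methylation and chromatin list was the one whose array means did not overlap, with 10.28, 10.30 and 10.27 in CD1 in vivo and 10.48, 10.73 and 10.48 in B6 in vivo. Its median difference was -0.27, with 12 of 20 genes lower in CD1, and it was 0.02 without CD1 replicate 1 and -0.04 without B6 replicate 2. Chd4, the remodeller of the NuRD complex, measured 6.31, 4.90 and 6.55 in CD1 in vivo and 7.33, 7.38 and 8.07 in B6 in vivo, a difference of -1.67 (SE 0.51). Mbd3, another NuRD subunit, differed by -1.53 (SE 0.65).

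Replication-dependent histone genes divided between the directions. The list median was 0.33 with 18 of 30 higher in CD1, and 5 genes lay wholly above and 5 wholly below B6, or 33.3% of the list without overlap against 10.4% of all genes. H2ac11 measured 7.09, 5.34 and 5.08 in CD1 in vivo and 8.68, 9.81 and 8.45 in B6 in vivo, a difference of -3.14 (SE 1.01). H2ac15 differed by -2.18 (SE 0.75). H2bc8 was on the other side, detected on 2 CD1 and 0 B6 arrays. Its CD1 mean was at least 1.89-fold above the B6 mean set at the detection floor (limma adjusted p = 0.343). These genes are near-identical in sequence, so a probe may read several of them.

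Metabolic and stress lists had small medians with members on both sides. Oxidative phosphorylation genes had a median of -0.05 over 67 genes, with Cyc1, cytochrome c1 of complex III, at -1.31 (SE 0.37) and 36 genes lower in CD1. Among glycolysis genes, Ldha (lactate dehydrogenase A) differed by 1.13 (SE 0.40) and Aldoa (aldolase A) by -1.10 (SE 0.42). Cholesterol synthesis genes had a median of -0.32, with 12 of 16 lower, among them Pmvk (phosphomevalonate kinase) at -1.66 (SE 0.72), but the median was 0.22 without B6 replicate 3 and 0.052 without CD1 replicate 3. In the endoplasmic reticulum stress list Atf4, a transcription factor of the integrated stress response, differed by -1.60 (SE 0.46) and Sel1l, of misfolded protein disposal, by 1.15 (SE 0.47). Txn1, thioredoxin, measured 11.88, 11.54 and 11.50 in CD1 in vivo and 10.36, 10.83 and 10.71 in B6 in vivo, a difference of 1.01 (SE 0.33) in the heat shock and oxidative stress list, whose median was 0.26 over 23 genes. Gadd45a, a p53 target that responds to DNA damage, differed by 1.05 (SE 0.44).

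Proteasome genes had a median of -0.14, with 21 of 29 lower in CD1, and ribosomal protein genes a median of -0.20, with 32 of 52 lower. Psmc3, an ATPase of the proteasome base, measured 11.58, 11.68 and 12.23 in CD1 in vivo and 13.06, 12.43 and 12.76 in B6 in vivo. Its difference was -0.92 (SE 0.29), and the strains did not overlap. Cell cycle genes had a median of -0.21 over 25 genes, with Mcm2, a helicase subunit of replication, at -1.16 (SE 0.38) and the kinetochore gene Spc24 at 1.18 (SE 0.31). The other probe of Spc24, detected on 2 CD1 and 2 B6 arrays, gave -0.42. Interferon-responsive and antigen presentation genes had a median of 0.28, with 15 of 24 higher. Of these, Ifitm3, a membrane protein that restricts virus entry, measured 6.63, 8.01 and 6.73 in CD1 in vivo and 5.57, 6.12 and 4.96 in B6 in vivo, a difference of 1.57 (SE 0.49). The class I antigen gene H2-D1 differed by -0.96 (SE 0.39). Protease inhibitor and cathepsin genes had a median of 0.20, with 12 of 18 higher, among them the pepsinogen gene Pga5 at 1.51 (SE 0.42). Genes of the amino acid starvation response and amino acid transport had a median of 0.05 over 17 genes.

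Transcripts typical of earlier stages varied between single arrays. The list of transcripts typical of the two-cell stage had a median of -0.53, with 12 of 16 lower in CD1. Without B6 replicate 1 it was -0.049, and with array weights -2.05. Its array means were 8.35, 6.67 and 6.38 in CD1 in vivo and 9.06, 6.72 and 7.62 in B6 in vivo, highest on B6 replicate 1. Zscan4c, a marker of that stage, measured 5.46, 4.70 and 4.85 in CD1 in vivo and 10.49, 5.33 and 5.14 in B6 in vivo, so 1 B6 array carried it. Oocyte transcripts averaged 9.05, 7.02 and 6.99 in CD1 in vivo and 7.54, 6.83 and 7.58 in B6 in vivo. The oocyte gene Oog1 measured 10.30, 7.12 and 4.96 in CD1 in vivo and 5.03, 4.76 and 4.83 in B6 in vivo, highest on CD1 replicate 1.

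Genes known for strain-dependent alleles or copy number were not apart as a list, with a median of 0.06 over 11 genes. Glo1, a detoxifying enzyme gene duplicated in some strains, measured 10.87, 12.45 and 12.58 in CD1 in vivo and 11.43, 11.82 and 10.38 in B6 in vivo, and the groups overlapped. Wdfy1 differed by 0.15 (SE 0.53) and Phf11a by 0.55 (SE 0.60). Ide, the insulin-degrading enzyme, differed by -0.85 (SE 0.39). The genes H19, Peg3, Nnt and Trp53 were not analysed here.

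Markers of the blastocyst lineages were present. All 6 in vivo arrays detected 16 of 25 trophectoderm, 15 of 23 epiblast and 10 of 19 primitive endoderm genes. Of the cumulus cell markers, 12 of 13 were detected on no in vivo array. The same held for 7 of 13 reproductive tract markers and 7 of 16 blood markers, while 2 of the reproductive tract markers, Foxj1 and Wfdc2, were detected on all 6 in vivo arrays. The haemoglobin gene Hba-a1 was detected on 0 CD1 arrays (5.03, 4.80 and 4.47) and on 2 B6 arrays (5.22, 7.24 and 5.81), and Ovgp1, an oviduct secretory gene, was 8.08 on CD1 replicate 1 and at most 5.34 elsewhere. The part of such cells in any gene's difference was not tested.

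The arrays from cultured embryos hold the same 2 strains in other samples, so they show which in vivo differences recur. CD1 minus B6 within HTF and within ISM1 gave 0 called genes each by limma (0%), with 229 (2.54%) in HTF and 225 (2.49%) in ISM1 before adjustment. Across the 9029 genes, the in vivo strain difference correlated with that in HTF at r = 0.376 and with that in ISM1 at r = 0.319, while HTF and ISM1 correlated at 0.396. These are descriptions across genes, which share arrays, brightness between strains and probes and are not independent replicates. The in vivo sign recurred in both media for 62.7% of the 877 genes with an unadjusted p under 0.05 in vivo, against 42.4% of all genes. It recurred in both for 15 of the 20 genes with the smallest p.

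Some in vivo differences were of like size in both media, others were smaller or near 0 there, and some turned sign. Ggct differed by 1.80 in vivo, 1.67 in HTF and 1.70 in ISM1. Golm2 had smaller estimates in culture, with 2.36 in vivo, 1.15 in HTF, where the groups overlapped, and 1.48 in ISM1. Gal3st2, with -2.85 in vivo, gave -0.45 in HTF and -0.63 in ISM1, and Zfp607a, with 1.67 in vivo, gave 0.13 and 0.05. Stk19, with -1.87 in vivo, gave 0.65 in HTF, where each CD1 array was above each B6 array, and 0.21 in ISM1. Fhod3, higher in CD1 in vivo, gave -0.55 in ISM1, where no CD1 array detected it, and no HTF array of either strain detected it. The difference between the in vivo strain effect and that of the 2 media was itself tested, and limma called 0 genes (0%), with 275 (3.05%) at an unadjusted p under 0.05. No gene can therefore be called particular to growth in vivo.

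**Figure D4:**
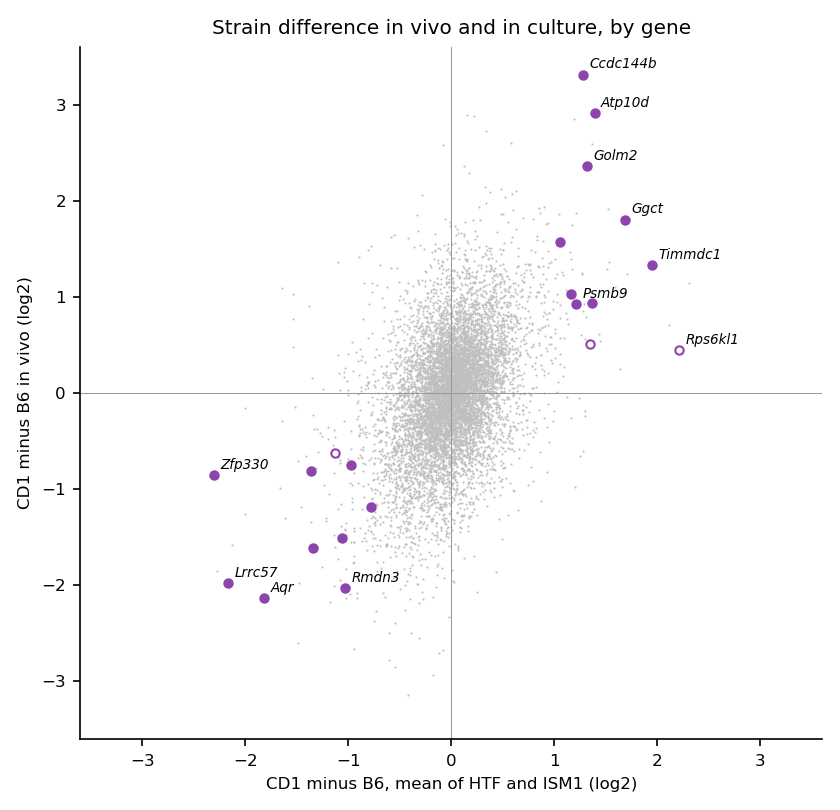
Log2 difference CD1 minus B6 for each autosomal gene, averaged over HTF and ISM1 on the x axis and in vivo on the y axis. Purple points are the 21 genes called in the average over all 3 conditions. They lie in the upper right and lower left quadrants, which the average that chose them favours. Open purple points are those of the 21 that no array of a strain detected in at least 1 of the 3 conditions, so their differences include values not above background.

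The strain difference averaged over HTF and ISM1, a contrast added after seeing the data, sets no in vivo array against another, although all 22 arrays entered the fit. It was called by limma for 3 genes (0.0332%), all higher in CD1, and for 0 genes where the compared arrays alone were fitted, with 746 at an unadjusted p under 0.05. These were Timmdc1, Ggct and Rps6kl1, and leaving out single arrays gave 0 to 6 genes. In culture Timmdc1 differed by 1.95 (SE 0.31, adjusted p = 0.0266) and Ggct by 1.69 (SE 0.28, adjusted p = 0.0284). In HTF Timmdc1 measured 8.29, 9.01 and 9.50 in CD1 and 7.02, 7.31 and 7.08 in B6, and in ISM1 it measured 8.07, 8.45 and 10.36 in CD1 and 6.55, 6.98 and 7.04 in B6. As in vivo, every CD1 array was above every B6 array of its medium. The in vivo arrays, which entered that choice only through the shared normalization, filter and estimate of spread, had an unadjusted p of 0.008 for Timmdc1 and of 0.000267 for Ggct by limma. Rps6kl1, a kinase-like protein gene, was detected on no in vivo array and is given no fold there. Among the 50 genes with the smallest p in culture, 48 had the same sign in vivo (96%, against 62.9% of all genes). For 24 of them the in vivo unadjusted p was under 0.05 on the same side (48%, against 8.03% of all genes), and for 22 the in vivo arrays did not overlap (44%, against 8.09%). The culture and in vivo p-values use the same estimate of spread for a gene, so genes of small spread tend to small p in both. The shares of all genes are therefore not a matched comparison.

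Averaged over in vivo, HTF and ISM1, the strains differed by limma for 21 autosomal genes (0.233%), 11 higher in CD1 (0.122%) and 10 lower (0.111%). The split moved with the scaling, to 14 higher and 544 lower with median scaling and to 60 higher and 18 lower with that scaling centred on the genes tested. The strains did not overlap in vivo for 14 of the 21 (10.4% of all genes), in HTF for 19 (13.6% of all genes) and in ISM1 for 18 (8.06% of all genes), but the average that chose the genes used these arrays, so nothing is read from those counts or from their shared sign. Ggct had the smallest adjusted p of the 21 by limma, with an average of 1.73 (SE 0.23, adjusted p = 0.00313), and Timmdc1 followed with 1.74 (SE 0.26, adjusted p = 0.00844). The other 3 Ggct probes averaged 0.89, 0.77 and 0.55, and Timmdc1 had 1 usable probe. Ggct was detected on 2 of the 3 B6 arrays in each of the 3 conditions.

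The other genes that rose in CD1 in this average included Ccdc144b (1.96), Atp10d (1.90), Golm2 (1.67), Trappc12 of the TRAPP vesicle tethering complex (1.23), Mocs2 of molybdenum cofactor synthesis (1.22), the Kunitz-type inhibitor gene Spint5 (1.12) and the immunoproteasome subunit gene Psmb9 (1.12). In vivo, Trappc12 measured 6.92, 8.05 and 7.19 in CD1 and 5.79, 6.56 and 5.10 in B6. Psmb9 measured 7.37, 8.47 and 8.65 in CD1 in vivo and 7.58, 6.92 and 7.21 in B6 in vivo, where the lowest CD1 array lay inside the B6 range.

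Genes that fell in CD1 in the average included Lrrc57 (-2.10), Aqr (-1.92), Zfp330 (-1.82), Rmdn3 (-1.36), Ldb1 (-1.21), Trnp1 (-1.18), Cstdc1 (-0.96), Tomm22 (-0.92) and Ccdc93 (-0.90). Aqr, an RNA helicase of the spliceosome, measured 6.59, 4.63 and 7.11 in CD1 in vivo and 8.01, 8.17 and 8.54 in B6 in vivo. Its differences were -2.13 in vivo, -1.58 in HTF and -2.06 in ISM1. Tomm22, a receptor of protein import into mitochondria, measured 10.87, 11.94 and 11.98 in CD1 in vivo and 12.98, 12.44 and 12.94 in B6 in vivo. Ldb1, a cofactor of LIM-domain transcription factors, measured 10.16, 9.71 and 10.74 in CD1 in vivo and 11.28, 12.01 and 11.86 in B6 in vivo. In both genes each CD1 in vivo array was below each B6 in vivo array. Trnp1 measured 6.84, 6.41 and 6.72 in CD1 in vivo and 7.44, 7.44 and 7.51 in B6 in vivo. Ccdc93, of an endosomal recycling complex, measured 9.30, 9.04 and 8.89 in CD1 in vivo and 9.88, 9.81 and 9.80 in B6 in vivo, with close B6 values. Zfp330 was smaller in vivo (-0.85) than in HTF (-2.66) and ISM1 (-1.95), and the in vivo groups overlapped. The brightest probe was used for each gene, and the other probe averaged -0.73 for Aqr, -0.20 for Zfp330 and 0.011 for Rmdn3, while the other 2 probes of Ccdc93 averaged -0.47 and -0.38. Cstdc1 was detected on no CD1 in vivo array.

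The 21 genes were not equally stable. Under 33 other settings Timmdc1 was called in 32 and Ggct in 28, while Aqr was called in 18 and Spint5 in 7. Each kept the sign of its average in every setting run. Leaving out single arrays gave counts of 2 to 67, with 67 without CD1 in vivo replicate 1 and 2 without B6 in vivo replicate 1.

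**Figure D5:**
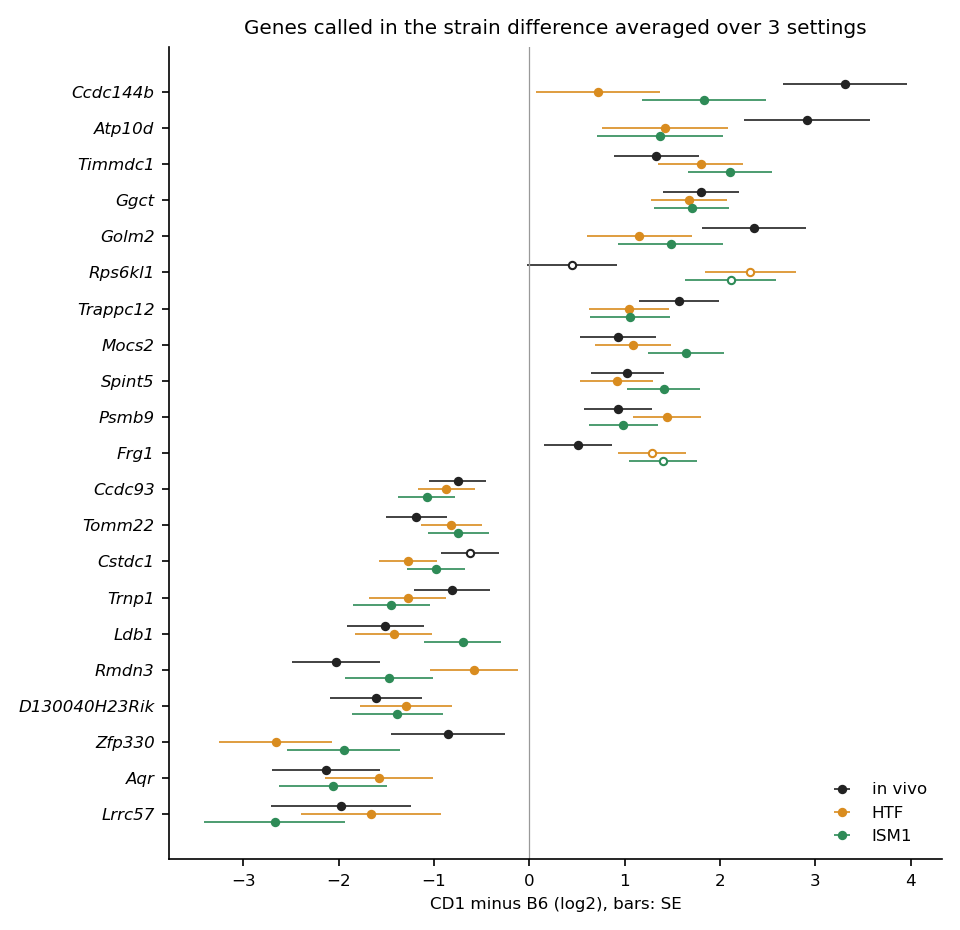
Log2 difference CD1 minus B6 for the 21 genes called in the average, in vivo in black, in HTF in orange and in ISM1 in green, with SE bars from the fit. Open points mark conditions in which no array of 1 or both strains detected the gene, as for Rps6kl1 in all 3, so the point compares background with signal or background with background. Each gene lies on 1 side of 0, which the average that chose it favours, and Zfp330 is closer to 0 in vivo than in either medium.

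The KSOM arrays gave a further look without a test, since CD1 had 1 array there. They entered the same normalization, filter and fit, and the genes looked at were chosen for small p. The shares of all genes given beside them are therefore not a matched comparison. Of the 21 genes, 20 had the same sign in KSOM (95.2%, against 64.4% of all genes), and for 19 the CD1 array lay outside the range of the 3 B6 arrays on that side (90.5%, against 34.3%). Timmdc1 was 9.54 on the CD1 KSOM array, against a mean of 6.76 on the B6 KSOM arrays. Ggct was 7.42 on the CD1 KSOM array, against a mean of 5.16 on the B6 KSOM arrays. D130040H23Rik, named after its values were seen, was the gene of opposite sign, with 6.65 on the CD1 array against a B6 mean of 5.83. Lrrc57 lay inside the B6 range there, with 7.65 on the CD1 array against a B6 mean of 7.66. Of the 20 genes with the smallest p in vivo, 17 kept their sign in KSOM (85%, against 64.3% of all genes), and for 14 the CD1 array lay outside the B6 range on that side (70%, against 33.4%). Those of opposite sign were Gal3st2 (CD1 minus B6 0.31 in KSOM), Mterf1a (-0.093) and Vldlr (-0.56), each with the CD1 array inside the B6 range. Cbs, which kept its sign, was 5.62 on the CD1 KSOM array, against a mean of 8.67 on the B6 KSOM arrays.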

How the data were processed

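RNA from 6 in vivo mouse blastocyst samples (3 CD1, 3 B6), and from the other 16 arrays of the study, was measured on one-colour Illumina BeadChips; per the labels' protocols, 150 ng of RNA was amplified and biotin-labelled by a 12 h in vitro transcription. The deposited table holds, for 25697 probes, linear bead intensities not normalized between arrays, each with a detection p-value that the authors gave without stating its method. The authors also deposited a table of log2 values, in which the sorted columns differ by at most 0.000774, so they are quantile-normalized. Per the submitters' processing notes, BeadStudio 3.2, RMA and lumi were used, and their order and settings are not given in the sources used here.

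Intensities were normalized with neqc (limma 3.58.1, R 4.3.3: normexp background from the detection p-values, offset 16, quantile normalization, log2). Of 12992 probes detected at p under 0.05 on at least 3 arrays, the brightest per gene was kept. Symbols came from the array annotation (23978 probes with 1 symbol, 1719 with none, 0 with several), and 23962 probes matched the RefSeq gene table (GRCm38.p6), which gave the chromosome. All 22 arrays entered a limma model with a mean for each of 8 groups (lmFit, eBayes, 14 residual and 3.51 prior degrees of freedom), two-sided, with Benjamini-Hochberg adjustment over 9345 genes, and autosomal genes are reported. A gene was called at an adjusted p under 0.05. The number of arrays limits the precision.

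Contrasts were CD1 minus B6 in vivo, in HTF and in ISM1, their average, the in vivo difference minus that in culture, and the culture average, added after seeing the data. Members, lists and the naming rule were chosen with earlier results of these data known. The rule named up to 12 called genes per direction without overlap between strains, filled to 10 by unadjusted p. It added up to 10 per direction called in the average with the same sign in 3 conditions, and up to 3 members per gene list by unadjusted p, of which most with p under 0.05 are printed. It also held 18 genes whatever their result: the lineage factors Sox17, Gata4, Gata6, Nanog, Sox2, Pou5f1, Cdx2, Eomes and Gata3, the imprinted genes Mest, Igf2, Peg3 and H19, and Glo1, Nnt, Phf11a, Wdfy1 and Trp53. Clone names were left out. A gene undetected on every array of a strain is given as a bound from the arrays' detection floors. The bound compares group means and does not include sampling error. The labels call the arrays biological replicates, without saying whether they come from separate litters. Same-numbered arrays deviated from their group means with correlations of -0.12, 0.525 and -0.0984, so the numbers were not taken to pair them. In simulated data with 9345 genes, the in vivo contrast recovered 5 of 100 genes changed by 1 log2 unit and 54 of 100 changed by 2, and the average recovered 53 and 93 of 100. The simulated noise was independent between genes and had the same spread in all groups, unlike the arrays. These rates need not hold for the in vivo arrays. Alternatives in background correction, scaling, filter, probe choice, weights, prior, block, covariate and left-out arrays were run.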

Additional observations from a re-analysis of the deposited data

How the results depend on the processing

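Counts of called autosomal genes are limma's at an adjusted p under 0.05. For CD1 against B6 in vivo, 17 of 21 other settings gave 0 as reported, among them the replicate block, array weights, median intensity as a covariate and the arrays compared alone. Median scaling gave 567. Leaving out single in vivo arrays gave 0 to 24 genes, with 5, 2 and 24 without CD1 replicates 1, 2 and 3 and 0 without any B6 array. Of the 24, 5 (Ccdc144b, Slc9a3r2, Gal3st2, Rmdn3 and Pex26) were among the 20 described. The cause was not tested.

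For the average over 3 conditions, 21 in the reported fit, the count was 558 with median scaling, 78 with median scaling centred on the genes tested, 132 with array weights, 10 with the compared arrays alone, 4 with median intensity as a covariate, 3 with the authors' table, 3 with the mean of a gene's probes and 2 without a filter. With the replicate number as a block it was 2. Of the same-numbered in vivo arrays, those of replicate 2 deviated together (r = 0.525), while those of replicates 1 and 3 did not (-0.12 and -0.0984). Leaving out single arrays gave 2 to 67, with 67 without CD1 in vivo replicate 1, and the count was 6 without both CD1 in vivo array 2 and B6 in vivo array 3. The arrays without which it fell to 6 or less were B6 in vivo replicates 1 and 3, CD1 in vivo replicate 2, all 6 B6 culture arrays, all 3 CD1 HTF arrays and CD1 ISM1 replicate 3, and without B6 in vivo replicate 2 it was 11. For culture alone, 3 in the reported fit, it was 0 with normexp at an offset of 50, 0 with the compared arrays alone, 0 with the covariate, 70 with weights, 5 with a trended prior, 7 without both named in vivo arrays and 0 to 6 without single arrays, with 0 without any B6 HTF array, B6 ISM1 replicate 1 or 3 or CD1 HTF replicate 3, 1 without B6 ISM1 replicate 2 or CD1 HTF replicate 1, and 6 without CD1 in vivo replicate 2. The in vivo minus culture contrast gave 0 in all 33 settings.

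Of 1899 alternative in vivo values of 91 named genes, 1809 kept their sign and side of the threshold, 40 passed it and 50 turned sign. In all, 72 genes never turned, and none of those that did was called in vivo in any setting. Rps6kl1 and Cstdc1, which turned in vivo, were among the genes called in the average. The sign turned for Wdfy1 with normexp (-0.070); for Txnrd1 (-0.087), Lxn (-0.33), Foxj1 (-0.070), Sox2 (-0.37), Mest (-0.51), Wdfy1 (-0.043) and Phf11a (-0.35) with median scaling; and for Cstdc1 (0.11), Cdx2 (0.016), Eomes (0.057), Nanog (0.22), Gata6 (0.32) and Igf2 (0.0087) with that scaling centred. It turned for Sox2 (-0.0044) and Wdfy1 (-0.11) in the authors' table, and for Sox2 (-0.20) and Phf11a (-0.31) with array weights. With median intensity as a covariate it turned for Rps6kl1 (-0.040), Cdx2 (0.30), Gata3 (1.28), Eomes (2.46), Sox2 (-0.28), Igf2 (2.01) and Wdfy1 (-1.14). Without both CD1 in vivo array 2 and B6 in vivo array 3 it turned for Cdkn1a (0.21), Rps2 (0.026), Nanog (0.27), Sox2 (-0.31) and Sox17 (-2.11), and without both CD1 in vivo array 1 and B6 in vivo array 3 for Igf2 (0.39), Wdfy1 (-0.46) and Phf11a (-0.58). Without single arrays the values ran from -1.57 to 1.10 for Eomes, -1.09 to 0.49 for Gata3, -0.23 to 0.16 for Sox2, -1.06 to 0.90 for Igf2, -0.76 to 2.88 for Sox17, -0.41 to 0.64 for Wdfy1, -0.19 to 1.14 for Phf11a, -0.62 to 0.16 for Nanog, -0.18 to 0.49 for Gata4 and -0.20 to 0.67 for Mest. The cause was not tested.

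List medians moved by more than a replicate SD in 64 of 524 values over 25 lists, and 24 of the 25 had the other sign under at least 1 setting, the two-cell stage list being the exception. For the epiblast, heat shock, interferon, protease inhibitor and histone lists that setting was median scaling or its centred form, which move all genes together. The limits are 3 arrays per strain, dimmer CD1 arrays, probes that may carry strain variants, and embryo sex and pooling that the labels do not give.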
